A study of Mus musculus with 2 samples.

Results

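The Mir10, Mir196 and Mir615 genes of the mouse Hox clusters were examined, namely Mir10a, Mir10b, Mir196a-1, Mir196a-2, Mir196b and Mir615. The 6 genes were chosen by symbol, as rows of the deposited count tables whose Ensembl gene ID carries one of these names in GENCODE, and they are 6 of the 1973 miRNA genes counted. All 6 were among the counted genes, and 5 of them had counts in both libraries. The small RNA libraries came from hearts of B6NCrl mouse embryos of both sexes at embryonic day 15.5, described as healthy and carrying no treatment or engineered allele in the labels. There was 1 group, with 2 biological replicates. For replicate 1, 78 embryos were pooled, and for replicate 2 the number was 62, so their spread is one between pools of whole hearts. Levels are in CPM, the counts of a gene per 1000000 counts assigned to miRNA genes on their own strand. Values after ± are SDs (n = 2 libraries).

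Hox genes encode transcription factors that set the identity of cells along the head-to-tail axis, and within each cluster the genes are numbered by paralogue group, with low numbers used towards the head and high numbers towards the tail. The miRNAs of these clusters lie between or within Hox genes, are transcribed on the same strand, and several of them repress Hox mRNAs through sites in the 3′ UTR. A miRNA recognises such sites mainly through its seed, bases 2 to 8 from the 5′ end, so miRNAs with the same seed form a family. miR-10 members are known from trunk tissues, blood vessels and haematopoietic cells. miR-196 members are known from the posterior trunk and limb buds, and miR-615 has been described less often.

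The 6 genes carry 3 seeds on the arm that is usually the dominant product. These mature sequences are shown because the seeds define the families, and because they determine which counts can be attributed to 1 gene. They are those of RefSeq on GRCm38.p6, where 6 of 6 symbols matched, and capitals mark the seed.

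miR-10a-5p: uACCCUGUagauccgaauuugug

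miR-10b-5p: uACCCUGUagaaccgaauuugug

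miR-196a-5p: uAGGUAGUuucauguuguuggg

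miR-196b-5p: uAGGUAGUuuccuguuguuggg

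miR-615-3p: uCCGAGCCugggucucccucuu

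miR-615-5p: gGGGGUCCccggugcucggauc

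miR-10a-5p and miR-10b-5p, each of 23 bases, differ by 1 substitution, U12A, counted from the 5′ end with the miR-10a base first. The same is true of miR-196a-5p and miR-196b-5p, of 22 bases, which differ by A12C. Both substitutions lie outside the seed. Among the mature mouse miRNAs of the table, the miR-10 seed occurred in 2 names and the miR-196 seed in 2 names, in each case those listed above. The seeds of miR-615-3p and miR-615-5p each occurred in 1 name.

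Beyond the Hox clusters, the miR-10 family has relatives by descent in the Mir99, Mir100 and Mir125 genes. Products of Mir100 and Mir99b are shown for the bases they share with miR-10, and let-7a-5p, which is no relative, for its match to the miR-196 seed.

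miR-100-5p: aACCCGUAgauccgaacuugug

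miR-99b-5p: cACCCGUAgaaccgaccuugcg

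let-7a-5p: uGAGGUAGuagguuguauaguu

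Bases 7 to 17 of miR-10a-5p recur as bases 6 to 16 of miR-100-5p, a shared run of 11 bases, while the seeds differ. Bases 7 to 16 of miR-10b-5p recur as bases 6 to 15 of miR-99b-5p, a run of 10 bases. The miR-196 seed AGGUAGU is present in let-7a-5p shifted by 1 position, at bases 3 to 9, and 9 mature names hold it there, 7 of them let-7 miRNAs. let-7 is a family that accumulates as tissues differentiate.

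The hearts pooled for these libraries carried the miRNAs of heart muscle in both replicates. Of the 8 heart muscle genes listed, 7 were counted, and Mir208b, encoded within a myosin heavy chain gene, reached 45857 ± 11343 CPM. Mir208a had 5886 ± 121 CPM and Mir499 had 2160 ± 469 CPM. Mir1a-1, Mir133a-1 and Mir133a-2 had at most 7 counts in a library, and their hairpins share identical stretches of 28 to 31 bases with another hairpin. Gene counts on the annotated strand summed to 3439539 of 7056606 reads for replicate 1 and to 5833156 of 11735546 reads for replicate 2. One count was worth 0.291 and 0.171 CPM, respectively. Of the 1973 genes, 327 were detected, meaning at least 10 counts in both libraries, and 1286 had no count in either. Multiply mapping reads stand on a line of their own in the deposited files, at 33.0% and 30.1% of all reads. They are taken here to be in no gene count, which the sources used here do not state.

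The 4 Hox clusters hold 7 annotated miRNA genes, of which Gm44463 in the Hoxd cluster was not among the counted genes. The 6 genes lie in all 4 clusters, on the strand of the Hox genes around them (mm10, positions from GENCODE M21). Mir10a, at chr11:96317165-96317274 on the plus strand, overlaps no annotated gene and lies in the Hoxb cluster. Hoxb4 begins 993 bp downstream of it, and Hoxb5 ends 11044 bp upstream. Mir10b, at chr2:74726070-74726137 on the plus strand, is intronic in Hoxd4 and in a long transcript of Hoxd3. Mir196a-1, at chr11:96265164-96265265 on the plus strand, lies between genes, with Hoxb9 6192 bp downstream and the lincRNA gene Gm53 296 bp upstream. Mir196a-2, at chr15:102973350-102973434 on the plus strand, lies in an intron of a long Hoxc5 transcript, with Hoxc10 1457 bp upstream and Hoxc9 3005 bp downstream. Mir196b, at chr6:52230081-52230165 on the minus strand, lies in an exon of 2 of the 3 Hoxa9 transcripts that span it and in an intron of the other. Neither of these 2 transcripts is annotated as protein-coding. Mir615, at chr15:103014910-103015001 on the plus strand, lies in an intron of Hoxc5 in both transcripts that span it. The Mir10 genes thus neighbour paralogue group 4, Mir615 lies within group 5, and the Mir196 genes lie beside or within group 9 genes, as the map of the 4 clusters shows.

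**Figure D1:**
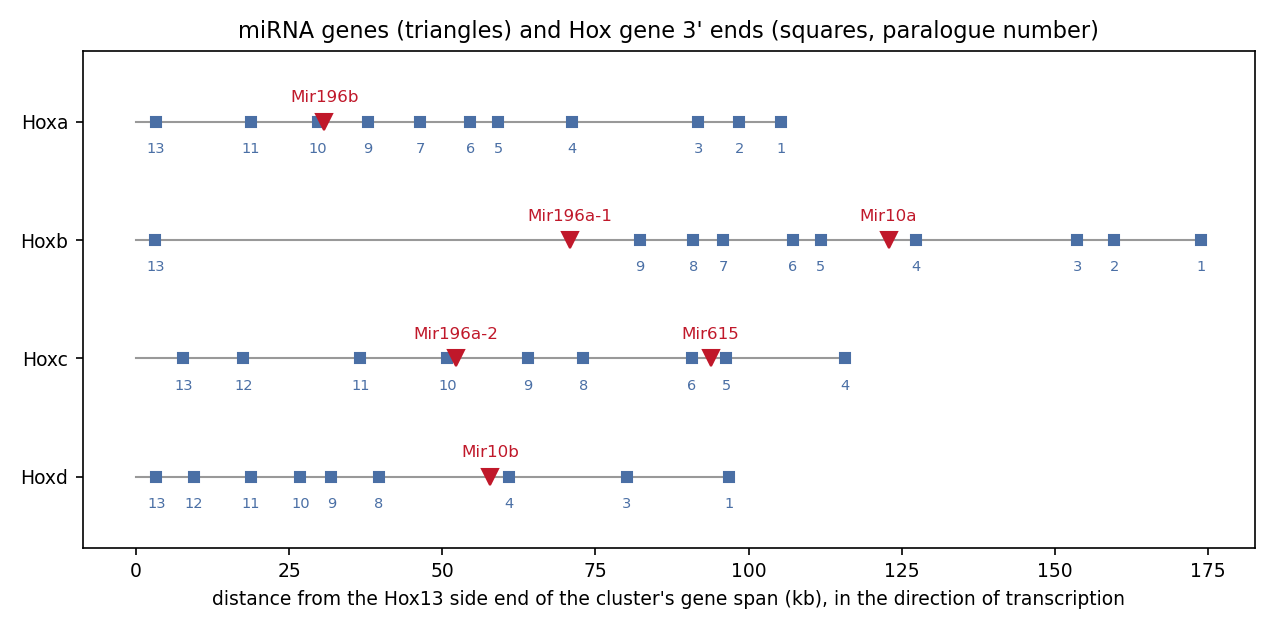
Map of the 4 mouse Hox clusters, drawn to scale with distance in kb from the Hox13 side along the direction of transcription on the horizontal axis. Squares are the 3′ ends of the 39 Hox genes with their paralogue number, and triangles are the 6 miRNA genes. Mir10a and Mir10b sit before group 4 genes, the Mir196 genes before group 9 genes, and Mir615 before the end of Hoxc5.

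Mir10a and Mir10b supplied most of the Hox cluster miRNA counts in these hearts. All 6 genes together held 15525 counts in replicate 1 and 47108 in replicate 2, or 4514 and 8076 CPM. This was 0.451% of counts in replicate 1 (exact 95% interval 0.444 to 0.459) and 0.808% in replicate 2 (0.800 to 0.815). The Mir10 pair made up 95.4% and 94.4% of these counts, the Mir196 genes 3.57% and 4.16%, and Mir615 0.992% and 1.45%. The Mir196 share can be undercounted, for the reason given below for the Mir196a genes. All intervals are Clopper-Pearson intervals and cover counting error only. In pools of whole hearts, fewer cells of a type and less RNA per cell cannot be told apart.

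Mir10a had 2968 CPM in replicate 1 (10208 counts) and 5452 CPM in replicate 2 (31804 counts), a mean of 4210 ± 1757 CPM. It ranked 33 of the 327 detected genes. Mir10b, which shares its seed, had 1340 CPM (4609 counts) and 2171 CPM (12662 counts), a mean of 1755 ± 587 CPM and rank 64. Both were higher in replicate 2, and the lower Mir10a value exceeded the higher Mir10b value. Within each library Mir10a had more counts than Mir10b, by a ratio of 2.21 in replicate 1 (95% interval 2.14 to 2.29) and 2.51 in replicate 2 (2.46 to 2.56). The log2 ratio was 1.24 ± 0.13 over both libraries. A ratio of counts of different miRNAs also holds differences in capture during library making, which were not measured here. The main products of Mir10a and Mir10b differ by 1 base, and assignment of reads between them was not tested.

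Mir196b, in the Hoxa cluster, was the main Mir196 gene by counts. It had 160 CPM in replicate 1 (549 counts) and 318 CPM in replicate 2 (1857 counts), a mean of 239 ± 112 CPM and rank 138. Mir196a-2 had 5 counts in replicate 1, or 1.45 CPM with an interval from 0.472 to 3.39, and 104 counts in replicate 2, or 17.8 CPM with an interval from 14.6 to 21.6. It therefore missed the minimum of 10 counts in both libraries. Mir196a-1 had 0 counts in both libraries, and 3 counts would be 0.872 and 0.514 CPM. That limit concerns reads assigned to the locus, not the mature miRNA. Mir196b exceeded the summed Mir196a genes by a count ratio of 110 in replicate 1 (46.8 to 340) and 17.9 in replicate 2 (14.7 to 22.0), and these intervals do not overlap.

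The Mir196a values are uncertain, because miR-196a-5p is encoded identically in both Mir196a hairpins. The hairpins are shown for this reason, with capitals marking the 22 bases they share, which are the mature miRNA itself.

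Mir196a-1: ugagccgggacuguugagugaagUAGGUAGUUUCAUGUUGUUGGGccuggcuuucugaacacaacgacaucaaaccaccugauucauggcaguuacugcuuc

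Mir196a-2: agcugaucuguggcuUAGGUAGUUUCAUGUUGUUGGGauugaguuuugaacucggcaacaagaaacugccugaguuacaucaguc

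A read holding only these capitals fits both loci, and if multiply mapping reads are in no gene count, it is in neither. The 5 and 104 counts of Mir196a-2, and the 0 counts of Mir196a-1, are therefore not read as a level of miR-196a-5p. None of the other 4 hairpins shares a run of 20 or more bases with another of the 2202 mouse hairpins searched. Mir10a and Mir10b share 15 bases at most, and the longest shared run was 12 bases for Mir196b and 14 for Mir615. The search was for identical runs, so it does not cover sequences that differ by 1 base. miR-10a-5p and miR-10b-5p differ by 1 base, as do miR-196a-5p and miR-196b-5p. How the aligner treated mismatches is not known, and assignment of reads within these pairs was not tested. The other mature arms of the 6 genes each occur in 1 hairpin.

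Mir615, within Hoxc5, had 44.8 CPM in replicate 1 (154 counts) and 117 CPM in replicate 2 (681 counts), a mean of 80.8 ± 50.9 CPM and rank 198. Its replicate 2 value lay below the replicate 1 value of Mir196b. The order Mir10a, Mir10b, Mir196b, Mir615, Mir196a-2 held in both libraries, and no 2 neighbours in this order had overlapping ranges over the libraries. Counts on the opposite strand summed to 0 over the 6 genes and both libraries. The plot of levels by library shows this order.

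**Figure D2:**
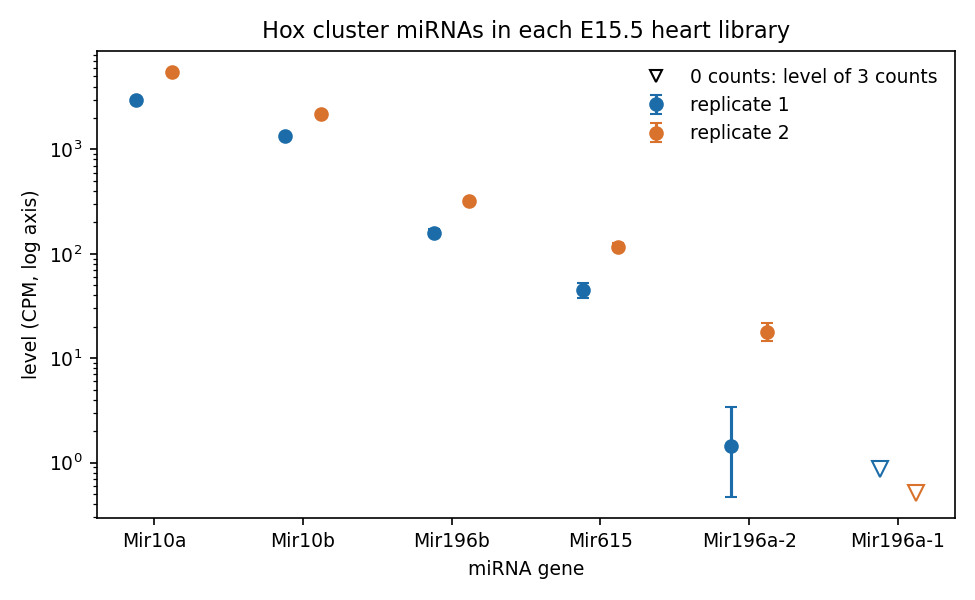
Level of each Hox cluster miRNA gene in each library, in CPM on a log axis, with points for the libraries and bars for the exact 95% counting interval. Mir10a and Mir10b lie above 1000 CPM in both libraries, Mir196b and Mir615 lie lower, and Mir196a-1 had no counts, so open triangles mark its level of 3 counts.

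The Mir10 genes were a small fraction of the wider miR-10 family by descent. The 6 relatives outside the Hox clusters, Mir99a, Mir99b, Mir100, Mir125a, Mir125b-1 and Mir125b-2, summed to 86813 CPM in replicate 1 and 87785 in replicate 2. Mir99a led with 61179 ± 2081 CPM, followed by Mir99b with 15447 ± 1342 and Mir100 with 6778 ± 840. miR-125b-5p has the same sequence in Mir125b-1 and Mir125b-2, so by the reading of multiply mapping reads above these genes, and with them the sum, can be undercounted. As counted, the relatives exceeded the Mir10 pair by a count ratio of 20.2 in replicate 1 (19.8 to 20.5) and 11.5 in replicate 2 (11.4 to 11.6). In CPM, the summed level of the relatives was nearly equal in both libraries, while the Mir10 pair had 4308 and 7623 CPM. Single relatives did differ. The exact binomial test described below uses scaled library sizes and not CPM. By this test, 3 of the 6 were called higher in replicate 2. Another 2 were called higher in replicate 1, among them Mir99a with a log2 ratio of -0.24 at the scaled sizes. Over all 413 genes tested, 102 and 90 were called in these directions. As counted, the Mir10 pair exceeded the Mir196 genes by 26.7 in replicate 1 (24.6 to 29.2) and 22.7 in replicate 2 (21.7 to 23.7). The Mir196 sum includes the Mir196a genes, so by the same reading it can be undercounted and this ratio too high, which the intervals do not cover.

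The 4 detected members were higher in replicate 2 than in replicate 1 when set against counting noise. Mir196a-2, which passed the filter for testing only through replicate 2, was higher there as well. Of all 413 genes tested, 24.7% were called higher in replicate 2 by the exact binomial test described below. The libraries belong to 1 group, so the comparison is of 2 pools and not of 2 conditions. With library sizes scaled by edgeR's TMM method (a trimmed mean of log ratios), the log2 ratio of replicate 2 to replicate 1 was 0.70 for Mir10a, or 1.63-fold (95% interval 1.59 to 1.67). It was 0.52 for Mir10b, or 1.44-fold (1.39 to 1.49). Mir196b had 0.82, or 1.77-fold (1.61 to 1.95), and Mir615 had 1.21, or 2.31-fold (1.94 to 2.77). Mir196a-2 had 3.31, or 10.9-fold (4.52 to 34.2), from 5 counts in replicate 1.

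By the two-sided exact binomial test with Benjamini-Hochberg adjustment over 413 genes of at least 10 counts summed, all 5 tested members passed the threshold of 0.05. The largest adjusted p among them, from the exact test, was 5.42e-13 for Mir196a-2. Mir196a-2 passed the filter only through replicate 2, and Mir196a-1 was not tested. Of the 413 genes, 192 or 46.5% were called in either direction and 24.7% were called higher in replicate 2, with 102 higher in replicate 2 and 90 higher in replicate 1. With total counts as library sizes the split was 155 against 48, and the median log2 ratio of all genes moved from 0.04 to 0.21. This scaling moves every gene by the same amount, and the members then ranged from 0.70 to 3.49. With TMM sizes the median of the 5 members, Mir196a-2 among them, was 0.82. The median of all 413 genes was 0.04, with quartiles of -0.24 and 0.37.

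These calls did not hold for 4 of the 5 members under edgeR's exact test with a common dispersion (a coefficient of variation of 29.9%). The dispersion was estimated from the same 2 libraries that were compared, so this test gives no independent measure of the spread between pools. It called 1.69% of genes higher in replicate 2, 7 of 413. Of the members it called Mir196a-2, with an adjusted p of 0.0173 by edgeR, a gene with 5 and 104 counts that passed the filter only through replicate 2. The adjusted p by the same edgeR test was 1 for Mir10a, Mir10b and Mir196b and 0.850 for Mir615. Mir10a had 15.3% of tested genes further towards replicate 2, Mir10b 20.3%, Mir196b 13.6%, Mir615 8.47% and Mir196a-2 0.969%. The plot of all tested genes shows where the members lie.

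**Figure D3:**
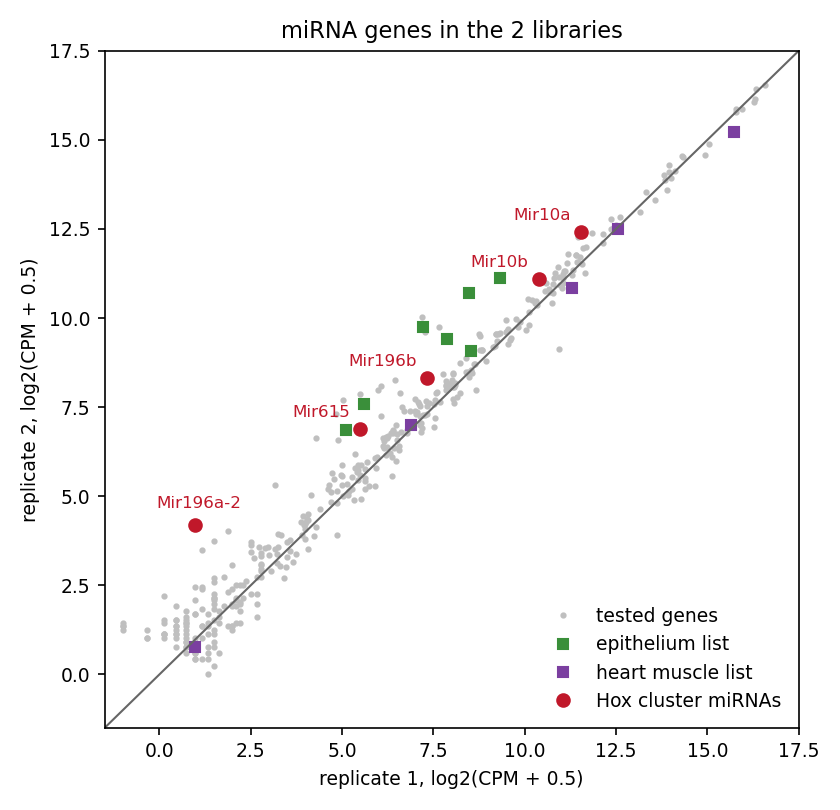
Level of each of the 413 tested miRNA genes in replicate 1 (horizontal) and replicate 2 (vertical), both as log2(CPM + 0.5), with a line of equal levels. Red circles are the 5 tested Hox cluster miRNA genes, all above the line, with Mir196a-2 at 1.45 and 17.8 CPM. Squares are the epithelium and heart muscle lists. These CPM are not TMM-scaled. With total counts as library sizes, the median log2 ratio of replicate 2 to replicate 1 over all 413 tested genes was 0.21.

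Markers of other tissues differed between the libraries as well. For the calls below, the exact binomial test called 24.7% of all 413 genes tested higher in replicate 2 and 21.8% higher in replicate 1. The 7 epithelial genes, Mir200 family members with Mir203 and Mir205, summed to 1821 CPM in replicate 1 and 6297 in replicate 2, and 7 of 7 were called higher in replicate 2 by the exact binomial test. Mir429 led with 1436 ± 1136 CPM, Mir200c had 1015 ± 930 and Mir205 had 500 ± 497. The neural list summed to 158 and 573 CPM, 3 of its 4 tested genes were called higher in replicate 2, and Mir9-2 and the 3 Mir124a genes had 0 counts in both libraries. Mir9-1 was not among the counted genes. As for Mir196a-1, these 0 counts concern reads assigned to the loci, not the mature miRNAs. Sequence shared between the copies of these genes was not examined, so the neural sum can be undercounted. Mir122, the main liver miRNA, had 87.2 and 309 CPM and was called higher in replicate 2. The heart muscle list summed to 62461 and 45595 CPM, with 3 of 5 tested genes called higher in replicate 1 and none higher in replicate 2. Endothelial Mir126a had 79217 and 67775 CPM, and the smooth muscle pair Mir143 and Mir145a summed to 83564 and 89291 CPM. With TMM sizes the exact binomial test called Mir126a, Mir143 and Mir145a higher in replicate 1. Their log2 ratios of replicate 2 to replicate 1 were -0.40, -0.07 and -0.48, so the smooth muscle sum and the calls went in opposite directions. The erythroid list summed to 2457 and 1095 CPM, and its genes were split. Mir451a had 1975 and 564 CPM and was called higher in replicate 1. Mir486 had 80.8 and 110 CPM and was called higher in replicate 2, and Mir144, at 401 and 422 CPM, was not called. The skeletal muscle pair Mir206 and Mir133b summed to 75.6 and 104 CPM. Mir206 was called higher in replicate 2, and Mir133b was not called. The part of these tissues in the member differences was not tested. The plot of log2 ratios sets the members beside 3 of the lists.

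**Figure D4:**
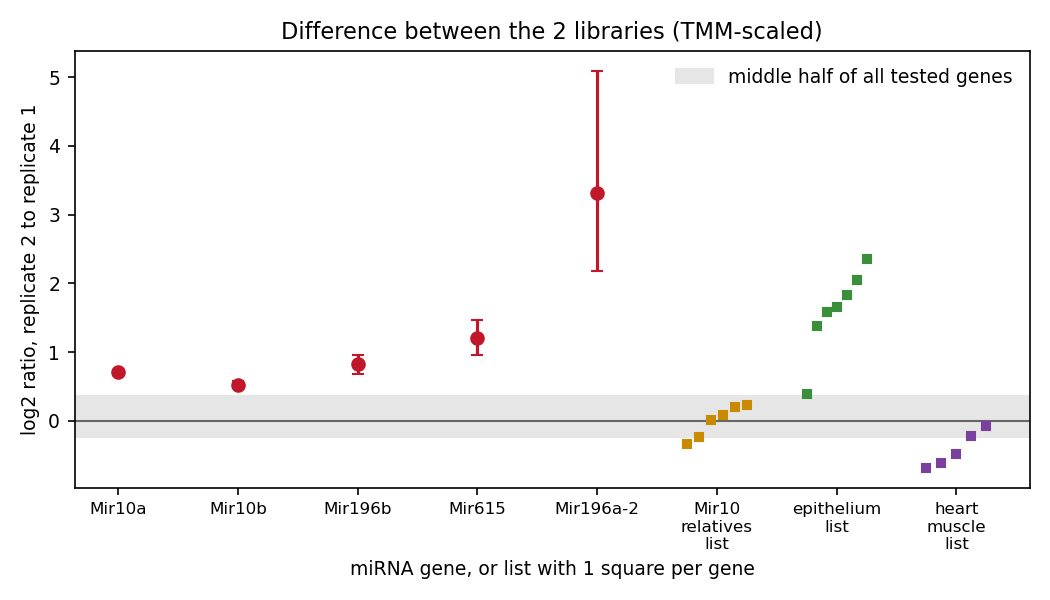
Log2 ratio of replicate 2 to replicate 1 with TMM-scaled libraries, for the 5 tested Hox cluster miRNA genes (circles, bars for the exact 95% counting interval) and for each tested gene of the Mir10 relatives, epithelium and heart muscle lists (squares). The grey band spans the quartiles of all 413 tested genes, -0.24 to 0.37, and the members lie above it at 0.52 to 3.31.

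The detected genes with levels most like each member over both libraries were found by distance in log2(CPM + 0.5), over 2 libraries only. Mir140 was nearest to Mir10a, at 2830 and 4972 CPM and a distance of 0.15, followed by Mir127 and Mir744. For Mir10b the nearest was Mir382, at 1427 and 2267 CPM and a distance of 0.11, then Mir541 and Mir92-1. Mir540, Mir370 and Mir224 were nearest to Mir196b, at distances of 0.45 to 0.49. Mir200a was nearest to Mir615, at 34.0 and 115 CPM and a distance of 0.39, followed by Mir221 and Mir92b.

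Hox mRNAs are known targets of these families, so the longest annotated 3′ UTR of each gene was searched on its own strand for an 8-base match to each leading seed. The leading arms were taken from background knowledge, since the counts do not separate arms. The miR-10 motif ACAGGGTA occurred in 3 of 39 Hox UTRs (7.69%), those of Hoxa3, Hoxb3 and Hoxd1, and in 438 of 20813 genes (2.10%). The miR-196 motif ACTACCTA occurred in 5 of 39 (12.8%), those of Hoxa5, Hoxa7, Hoxb6, Hoxb7 and Hoxc8, and in 267 of 20813 (1.28%). The miR-615-3p motif GGCTCGGA occurred in 0 of 39 Hox UTRs and in 112 of 20813 genes (0.538%). Among UTRs within the length range of the Hox UTRs, 30 to 1987 bases, the shares were 0.994% for miR-10, 0.565% for miR-196 and 0.325% for miR-615-3p. This range leaves out only longer UTRs and is no match for length. The median length was 966 bases for the Hox UTRs and 976 for all UTRs. A match is a run of letters and not a measured site, and no mRNA was measured here.

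The motif was most frequent in Hoxa7, whose UTR holds 4 matches to miR-196. The sites are shown to let the pairing be read against the mature sequences, with capitals marking the motif.

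Hoxa7 for miR-196: actactagccctaaACTACCTA

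Hoxd1 for miR-10: tagcggaacaaatccACAGGGTA

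The Hoxa7 site, at bases 486 to 507 of a 1219-base UTR, has 14 Watson-Crick pairs with miR-196a-5p. The Hoxd1 site, at bases 541 to 563 of 753, has 13 with miR-10a-5p. Hoxb8 has no 8-base match and is named outside the rule for such matches, chosen with its pairing already known, as a target with near-complete pairing to miR-196. Its site is shown with capitals for Watson-Crick pairs.

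Hoxb8 for miR-196a: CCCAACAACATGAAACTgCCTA

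It lies at bases 418 to 439 of an 845-base UTR and has 21 Watson-Crick pairs and 1 G:U pair with the 22 bases of miR-196a-5p. With miR-196b-5p it has 20 Watson-Crick pairs, since base 12 is unpaired. No other of the 20813 UTRs had more than 17 Watson-Crick pairs with miR-196a-5p or more than 18 with miR-196b-5p. With G:U pairs counted as well, 2 UTRs, Hoxb8 among them, reached 22 pairs with miR-196a-5p, and 15 UTRs, Hoxb8 among them, reached 21 with miR-196b-5p. In these hearts the Mir196b gene, whose product pairs less completely there, had more counts than Mir196a-2, with the limit on Mir196a counts given above. The grid of matches by paralogue group shows where the motifs fall.

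**Figure D5:**
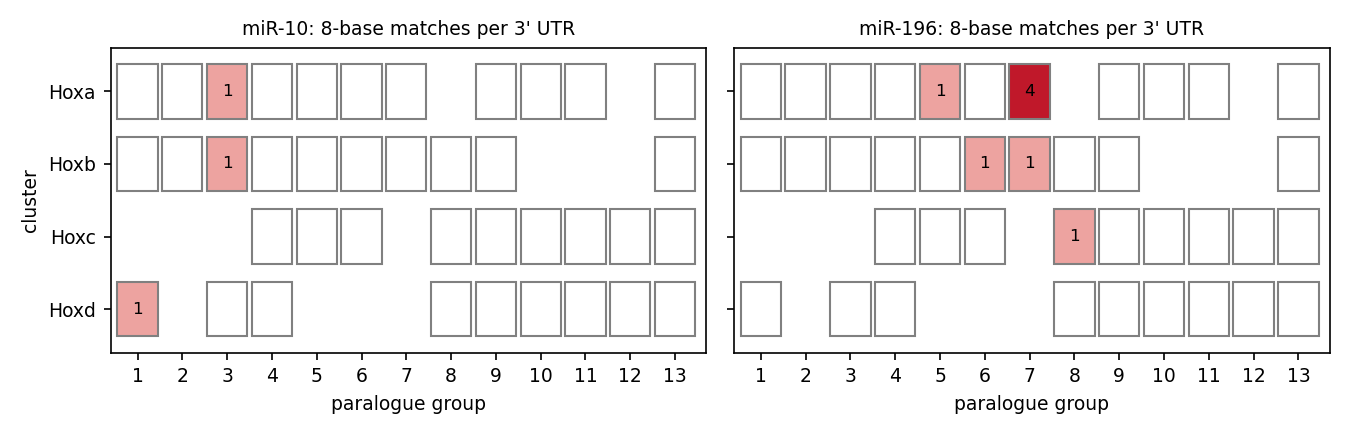
Number of 8-base seed matches in the longest 3′ UTR of each Hox gene, with paralogue group on the horizontal axis and cluster on the vertical axis, for miR-10 (left) and miR-196 (right). Boxes are Hox genes, and the numbers give matches, which fall in groups 1 and 3 for miR-10 and in groups 5 to 8 for miR-196, with 4 in Hoxa7.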

How the data were processed

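Each biological replicate of embryonic day 15.5 heart has 1 deposited file of raw counts, whole numbers of reads for each miRNA gene in 3 columns (either strand, the gene's strand, the opposite strand). The text deposited beside them names mm10 and GENCODE M4. The aligner, the trimming and the counting tool were not given in the sources used here. Unmapped, multiply mapping and other reads of no gene were left out of library totals. Symbols matched 1894 of 1973 IDs in GENCODE M21.

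CPM were computed on the gene's strand. TMM factors (0.942 and 1.06), the common dispersion and edgeR's exact test came from edgeR 4.0.16 in R 4.3.3. The exact binomial tests ran in Python 3.11.15 with scipy 1.17.1, after being tested on simulated data. The simulated counts held counting noise and no further spread between libraries. Alternatives were DESeq2 1.42.0 size factors, total counts, other filters, strands, denominators and pseudocounts, edgeR's exact test and leaving out each library. The binomial p-values measure counting noise only.

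Named were the members, list genes with up to 3 leaders, the 3 most alike genes per member, neighbours within 20 kb, and Hox genes with an 8-base match. Members and lists were chosen with earlier results of these data known.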

Additional observations from a re-analysis of the deposited data

How the results depend on the processing

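Of 87 values recomputed with both libraries, 74 kept their direction and call, or moved by no more than the SD of the libraries. Counts of called genes were taken as kept within a fixed fold of the main count, as with 102 against 86 genes. The 74 include values that could not move. Member log2 ratios do not depend on the count filter, and Mir196a-1 stayed at 0 counts. The within-library ratios were identical with counts on either strand. The 30 values with 1 library left out give no check of stability, since with 2 libraries they cannot move by more than the SD. With all reads as the denominator the summed level of the members fell from 6295 to 3107 CPM, since that denominator also holds reads counted for no gene, and Mir10a, Mir10b and Mir196b came to 2078, 866 and 118 CPM. edgeR's exact test at the common dispersion called 1 of the 5 members higher in replicate 2, and over all genes 7 towards replicate 2 and 0 towards replicate 1. At an unadjusted p under 0.05 it gave 27 and 1 genes. Total counts as library sizes gave 155 and 48 genes, and DESeq2 size factors 86 and 102. All 5 members were called higher in replicate 2 under total counts, DESeq2 size factors, no filter, a minimum of 100 counts and counts on either strand. In the same order, 37.5%, 20.8%, 14.3%, 33.6% and 25.1% of all tested genes were called higher in replicate 2. Leaving out 1 library gave a summed level of 4514 to 8076 CPM. It gave a log2 ratio of 1.15 to 1.33 for Mir10a to Mir10b, 4.15 to 6.64 for Mir196b to the Mir196a sum, 4.50 to 4.74 for the Mir10 sum to the Mir196 sum, and -4.33 to -3.53 for the Mir10 sum to the relatives. Mir196a-2 rests on 5 counts in replicate 1. No paired analysis was possible because there is 1 group.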
